A study of Mus musculus with 19 samples.

Results

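The cells left after macrophages were sorted away from the mouse cochlea were compared between old and young animals by RNA sequencing. The comparison took 8 of the 19 libraries of the series, the GFP-negative cells (called nonmacrophages) of whole cochleae, 4 from old mice of 12 to 14 months and 4 from young mice of 1.5 months. Both groups were heterozygous Cx3cr1 GFP knock-in mice, in which green fluorescent protein replaces 1 copy of a chemokine receptor gene active in macrophages. Animals of both ages therefore carried only 1 working copy of Cx3cr1. Each library came from 1 mouse according to the labels and is named here by its age and replicate number. Old 11 and old 18 nevertheless held more than a few reads of both Xist and Y-linked genes. Sorting on the absence of GFP does not select 1 cell type, so each library is a mixture of many cell types. Young libraries of 3 other kinds, with 1 library each, serve as side references without a test. They are an unsorted cochlea, the nonmacrophages of the auditory nerve and the nonmacrophages of the lateral wall.

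The cochlea turns sound into nerve signals through its hair cells, which carry bundles of stereocilia and are held by supporting cells. The stria vascularis in the lateral wall pumps potassium into the fluid above the hair cells, and its intermediate cells are pigment cells that depend on the potassium channel Kcnj10. Hearing loss of age is associated with damage to hair cells, the stria and the auditory nerve. Motile cilia and their axoneme, the microtubule core, are assembled from genes that are also active in hair cells, which form a true cilium during development.

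The old libraries resembled each other far more than the young ones did. They held 53.9, 51.2, 61.4 and 64.4 M reads (M, the prefix mega; replicates 10, 11, 18 and 19), against 25.2, 25.4, 24.9 and 60.2 M in the young (replicates 2, 5, 6 and 14). The median standard deviation of a gene within a group was 0.18 on the log2 scale in old and 0.81 in young libraries, over 15413 genes. Across genes, replicate libraries correlated with a Pearson r of 0.975 to 0.981 in old and 0.871 to 0.919 in young pairs, and genes are not independent replicates. On the first principal component, with 53.2% of the variance, the old libraries lay between -82.8 and -74.6. Young 14 lay near them at -52.3, while young 5, 6 and 2 lay at 21.5, 136.3 and 213.2. The young libraries were scattered: young 5 and 14 correlated best (r = 0.919, the other young pairs 0.871 to 0.882), and young 14 was the nearest to the old libraries. Since young 14 also had the depth of the old libraries, results are given with and without it where it matters.

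Old libraries had reads in more genes. Genes with at least 1 read numbered 17662 to 17708 in old libraries and 14399, 15433, 14879 and 17200 in young 2, 5, 6 and 14. The groups did not overlap, with means of 17684.2 ± 22.2 and 15477.8 ± 1223.4 (SD, n = 4 each). The difference of 2206.5 had an exact two-sided permutation p = 0.0286, the smallest that 4 against 4 libraries can give. Depth was higher in old libraries, so all were thinned to 20 M reads. The difference was then 1919.5 genes (17263.5 ± 43.0 against 15344.0 ± 1087.1, SD, n = 4 each), again with exact permutation p = 0.0286. Young 14 at 16845 genes was closer to the old libraries (17199 to 17287) than to young 2, 5 and 6 (14333 to 15373). The unsorted young cochlea, outside the test, had 17468 genes from 20.6 M reads. At 20 M reads it had 17457, above every old library. The young nerve and lateral wall libraries had 16025 and 15783 at 20 M reads, below every old library. What age itself contributes to the difference was not tested.

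**Figure D1:**
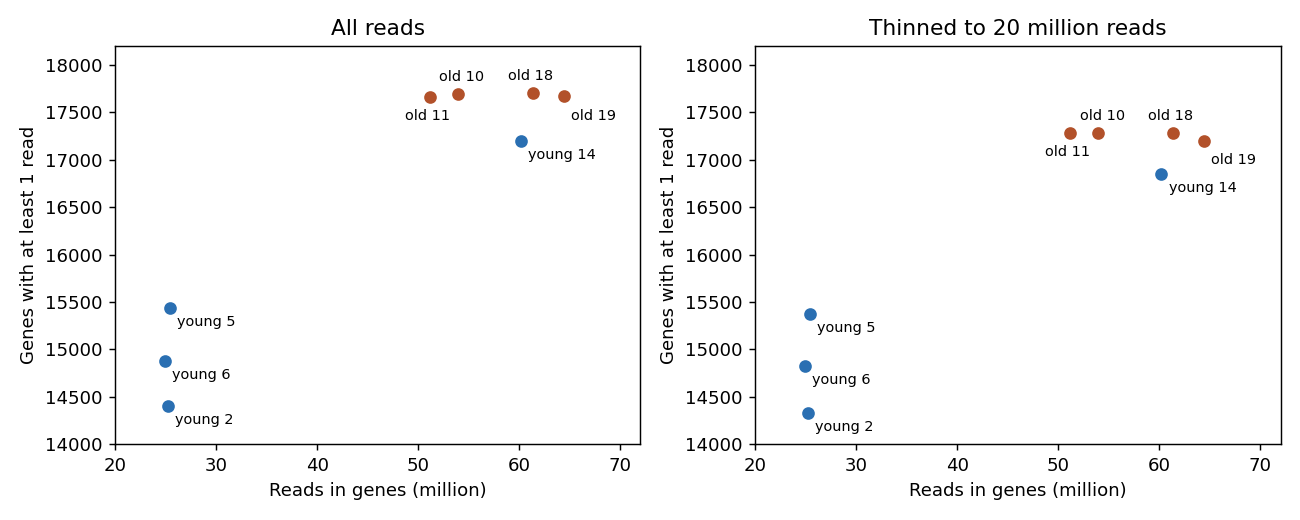
Genes with at least 1 read (vertical axis, not starting at 0) against reads in genes (M) before thinning (horizontal axis) for 4 old (red-brown) and 4 young (blue) nonmacrophage libraries, with all reads on the left and thinned to 20 M reads on the right. The 4 old libraries sit above every young library in both panels, and young 14 is the nearest of the young libraries to them.

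With all 8 libraries, 29 of 15413 genes (0.188%) passed limma at a Benjamini-Hochberg adjusted p under 0.05, 28 of them higher (0.182%) and 1 lower (0.00649%) in old mice. Of the higher genes, 3 are on the hair cell list (Pou4f3, Strc, Loxhd1) and 2 on the list of axoneme symbols (Tekt1, Cfap206), and the other 23 are on neither. Their differences spanned 1.64 to 7.80 on the log2(normalized reads + 1) scale, on which the fold of a gene with few reads comes out too small. The only gene called lower was Ccnd2, which encodes cyclin D2, a driver of entry into the cell cycle. The median difference of all genes was 0.33 on this scale, so old libraries sat slightly above young ones for the typical gene. This depended on the setting, with a median of 0.02 under quantile normalization, 0.08 with edgeR and 0.02 with DESeq2. Every old library stood above every young one in 1841 genes (11.9%) and below in 991 genes (6.43%). Under quantile normalization these numbers were 1327 (8.61%) and 1512 (9.81%), and with a common total 1463 and 1231. Which of the 2 was larger therefore depended on the scaling. The share below rose with level, from 0.302% among genes averaging under 30 normalized reads to 12.4% among genes averaging 3000 or more.

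The number of calls rested on single libraries. Leaving out young 14 raised it to 4517 genes (29.3%), with 2656 higher (17.2%) and 1861 lower (12.1%). The young libraries of that fit had 24.9 to 25.4 M reads and the old ones 51.2 to 64.4 M. Age and depth therefore cannot be told apart in it, here and wherever it is cited below. Among the 2656 genes young 14 stood at a median of 0.9 of the way from the mean of the other young libraries to the old mean, and among the 1861 at 0.94. Leaving out any old library, or young 5, left 0 genes, and leaving out young 2 or young 6 left 3 or 10. At an unadjusted p under 0.05 these fits still had 2458 to 4750 genes. With edgeR (quasi-likelihood, whole reads) 0 genes passed, with 3668 at an unadjusted p under 0.05 and a smallest adjusted p of 0.098. DESeq2 called 2054, of which 486 were higher and 1568 lower in old. Each of the 29 genes kept its direction in every fit that held it. Their groups did not overlap, so refits of the same libraries could hardly reverse them, and this is no further evidence.

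**Figure D2:**
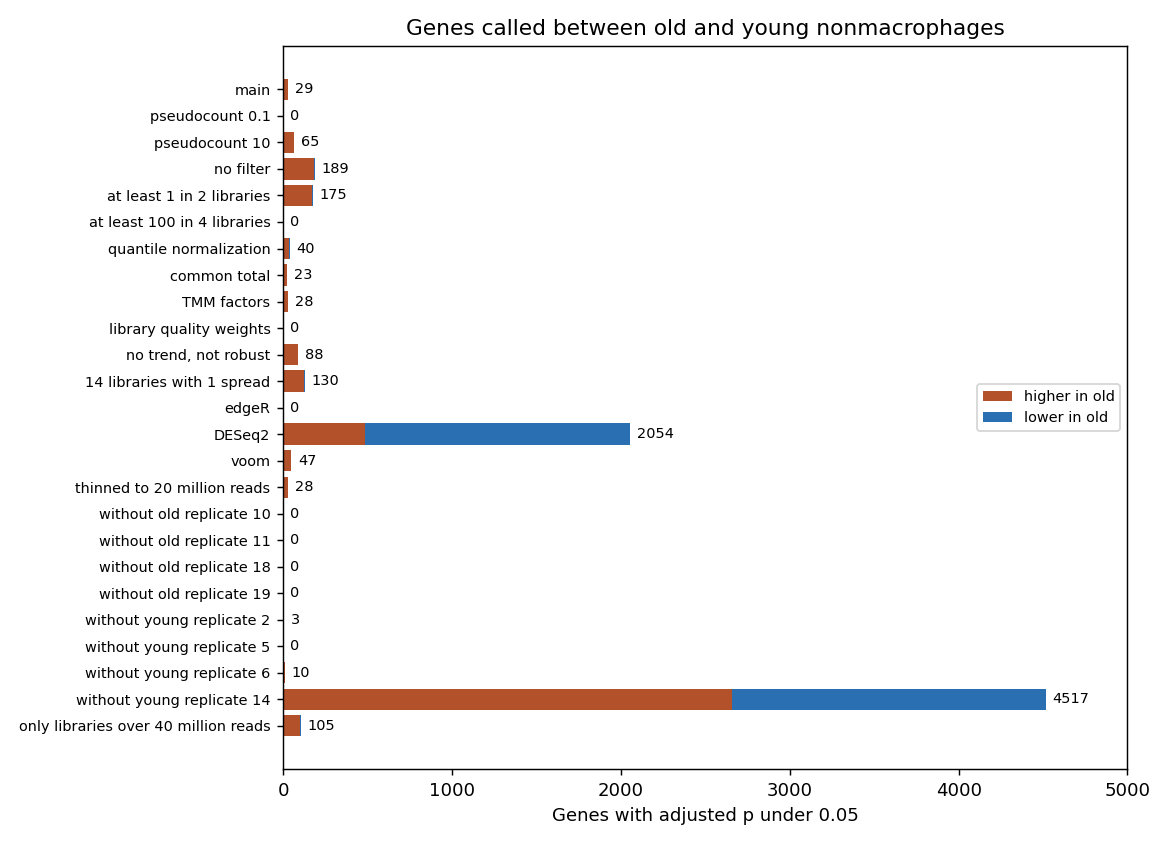
Genes with an adjusted p under 0.05 (horizontal axis) under each setting (vertical axis), split into higher (red-brown) and lower (blue) in old nonmacrophages, with the total printed beside each bar. The top bar is the limma fit of all 8 libraries with 29 genes, and the bar without young replicate 14 reaches 4517.

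Of the 29 called genes, 24 reached the minimum of 10 normalized reads in 4 libraries through the old group alone. Their groups could not overlap, so their number is no evidence of its own. Of the 28 higher genes 15 had no read in any young library, 23 had none in young 2, 5 and 6, and 12 had some in young 14. A count of 0 allows up to 3 reads per library, a limit that covers counting error only. Of all genes tested, 120 passed through the old group alone and 1 through the young group alone.

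Of the 28 genes called higher, 5 also stood in every old library above the unsorted, nerve and lateral wall libraries of young mice. These 5, picked out after their values were seen, are Paqr8, Vrtn, Cdr2, Srd5a2 and Lrrc10b. Among the 1841 genes with old above every sorted young library, 594 stood above these other libraries too, so the 5 are not unusual in this. Paqr8, a membrane receptor for progestins (mm10, chromosome 1, 20890606 to 20939650), had 5987, 7893, 6906 and 8464 normalized reads in old 10, 11, 18 and 19. In young 2, 5, 6 and 14 it had 2082, 2130, 2131 and 2869, in the unsorted young cochlea 2917, in the nerve 5674 and in the lateral wall 1162. The groups did not overlap and young 14 was the highest of the young, while the young nerve library came close to the lowest old value. The log2 difference was 1.67 (SE 0.199, limma adjusted p = 0.036), a ratio of means of 3.18.

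Cdr2, which encodes an antigen of paraneoplastic cerebellar degeneration (chromosome 7, 120957036 to 120982312), averaged 2416 ± 131 in old and 792 ± 196 in young libraries (SD, n = 4 each). Its lowest old value of 2284 was above the highest young value of 1071 and the 1514 of the unsorted library (log2 difference 1.64, SE 0.228, limma adjusted p = 0.044). Lrrc10b, a leucine-rich repeat gene (chromosome 19, 10455371 to 10457473), had 543 to 1124 in old libraries, 97.9 to 220 in young ones and 468 in the unsorted one. Paqr8, Cdr2 and Lrrc10b were read in all libraries and so did not depend on the filter. Vrtn (vertnin) had 62.1, 75.7, 56.2 and 80.7 in old libraries and no reads in the 4 young ones, and was at least 17.2-fold higher in old against 3 reads per library. The unsorted library held 4.59 and the nerve and wall libraries 0. Srd5a2, a steroid 5-alpha-reductase that makes dihydrotestosterone, had 38.1, 48.9, 45.6 and 43.3 in old libraries and none in the young, at least 11.0-fold higher. The unsorted library held 12.2. Both genes were alike in the 4 old libraries, unlike the hair cell genes below.

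The other 23 called higher genes behaved differently in the unsorted young cochlea. All 28 were above every sorted young library there, and these 23 were above the lowest old library as well. Of the 28, 15 had no read in any sorted young library, so a few reads elsewhere suffice to exceed them. In the nerve library 21 of 28, and in the lateral wall library 10 of 28, exceeded every sorted young library. Over all genes tested, 25.1% were higher in the unsorted than in every sorted young library, and 26.2% and 24.1% in the nerve and lateral wall libraries. Of the 1841 genes with old above every sorted young library, 1074 (58.3%) were also above them in the unsorted library. In the other direction, of the 991 genes with old below, 712 (71.8%) were below every sorted young library in the unsorted one, against 18.7% of all genes. For 979 of the 1841 and 375 of the 991, the old libraries also stood beyond the unsorted library. The called genes, the 1841 and the 991 were picked by their values in the sorted young libraries, which by itself raises such shares. The shares of all genes are therefore not a like measure. The unsorted cochlea contains macrophages and is 1 library, so these are counts without a test. What the sort itself contributes to the age difference was not tested.

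Hair cell genes were the list with the widest gap. Of 18 listed markers 17 were in the table and 16 were tested, with a median log2 difference of 5.04, against 0.33 for all genes. In 12 of 16 (75%, against 11.9% of all genes) every old library exceeded every young one, and in 0 it was below. The number above was 10 under quantile normalization and 11 with TMM factors. Of the 16, 3 had passed the filter through the old group alone, and of the other 13, 9 did not overlap (69.2%, against 11.3%). The mean log2 level of the 17 genes was 8.35, 8.90, 8.37 and 7.45 in old and 3.71, 3.26, 5.04 and 4.89 in young libraries. It was 8.56 in the unsorted young cochlea. In these mixed samples, fewer cells of a type and less RNA per cell cannot be told apart.

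Otof, the calcium sensor of transmitter release from inner hair cells, had 1212, 2580, 1360 and 321 normalized reads in old libraries. The young libraries had 0, 0, 73.4 and 62.6, and the unsorted young cochlea had 1864. Otof was high in all old libraries, lowest in old 19, and absent in young 2 and 5. Its log2 difference of 7.03 (SE 1.56) did not pass limma (adjusted p = 0.12). Tmc1, a subunit of the mechanotransduction channel, had 456, 818, 629 and 291 in old and 10.7, 0, 6.53 and 26.2 in young libraries. Its groups did not overlap either (log2 difference 6.20, SE 1.01, adjusted p = 0.060 by limma), and the unsorted cochlea had 783.

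Of the markers, 3 passed limma. Pou4f3, a transcription factor needed for hair cell survival, had 58.4, 171, 111 and 32.4 in old libraries and 0 in all 4 young ones (log2 difference 6.30, limma adjusted p = 0.044). Strc, which encodes stereocilin of the stereocilia links, had 154, 322, 179 and 79.6 in old libraries and 8.02 in young 14, with none in the others. Loxhd1, a stereocilia protein, had 130, 151, 152 and 48.3 against 3.74 in young 14 alone. All 3 were well above 0 in the unsorted young library, at 159 for Pou4f3, 231 for Strc and 125 for Loxhd1. Old 11 was the highest and old 19 the lowest library for Otof, Tmc1, Pou4f3 and Strc. Espn, an actin bundler of the hair bundle, had 1231, 1705, 1672 and 793 in old and 1.78, 83.1, 173 and 290 in young libraries (log2 difference 4.46, adjusted p = 0.15 by limma).

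Not all members followed. Pvalb and Cib2, a calcium buffer and a transduction channel partner, differed by -0.29 and -0.10, and Slc17a8, the glutamate transporter of inner hair cells, by -0.43. Their groups overlapped and their limma adjusted p was 0.65, 0.84 and 0.72. Slc26a5, prestin of outer hair cells, had 346, 92.2, 202 and 140 in old libraries and 11.2 in young 14 only. In the unsorted young library, where Otof was abundant, Slc26a5 had 0 reads. Without young 14, 10 of the 16 tested genes were called higher by limma (against 17.2% of all genes in that fit) and none lower. Against young 14 alone the median difference was 3.54. Supporting cell genes were mixed, with 3 of 16 above (18.8%, against 11.9% of all genes) and 2 below (12.5%, against 6.43%). Their median was 1.05, against 0.33 for all genes, and 0.13 against young 14 alone.

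Among genes of hereditary deafness, 11 of 34 tested stood above (32.4%, against 11.9% of all genes) and 4 below (11.8%, against 6.43%). Of the 34, 3 had passed the filter through the old group alone, and of the other 31, 8 stood above (25.8%, against 11.3%). The median was 1.00 against all young libraries and 0.01 against young 14 alone. Of the 11 above, 7 are also on the hair cell list (Otof, Tmc1, Myo7a, Strc, Slc26a5, Pou4f3, Loxhd1). The others above were Ush1c, a stereocilia scaffold, Myo6, an actin motor, Tecta, a protein of the tectorial membrane, and Eya1, an otic regulator. The 4 below were Coch, Gjb6, Pou3f4 and Kcnj10, which are on the lists of spiral ligament fibrocytes or strial intermediate cells. Coch was not confined to the lateral wall, with 467101 in the young nerve and 218026 in the young lateral wall library.

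**Figure D3:**
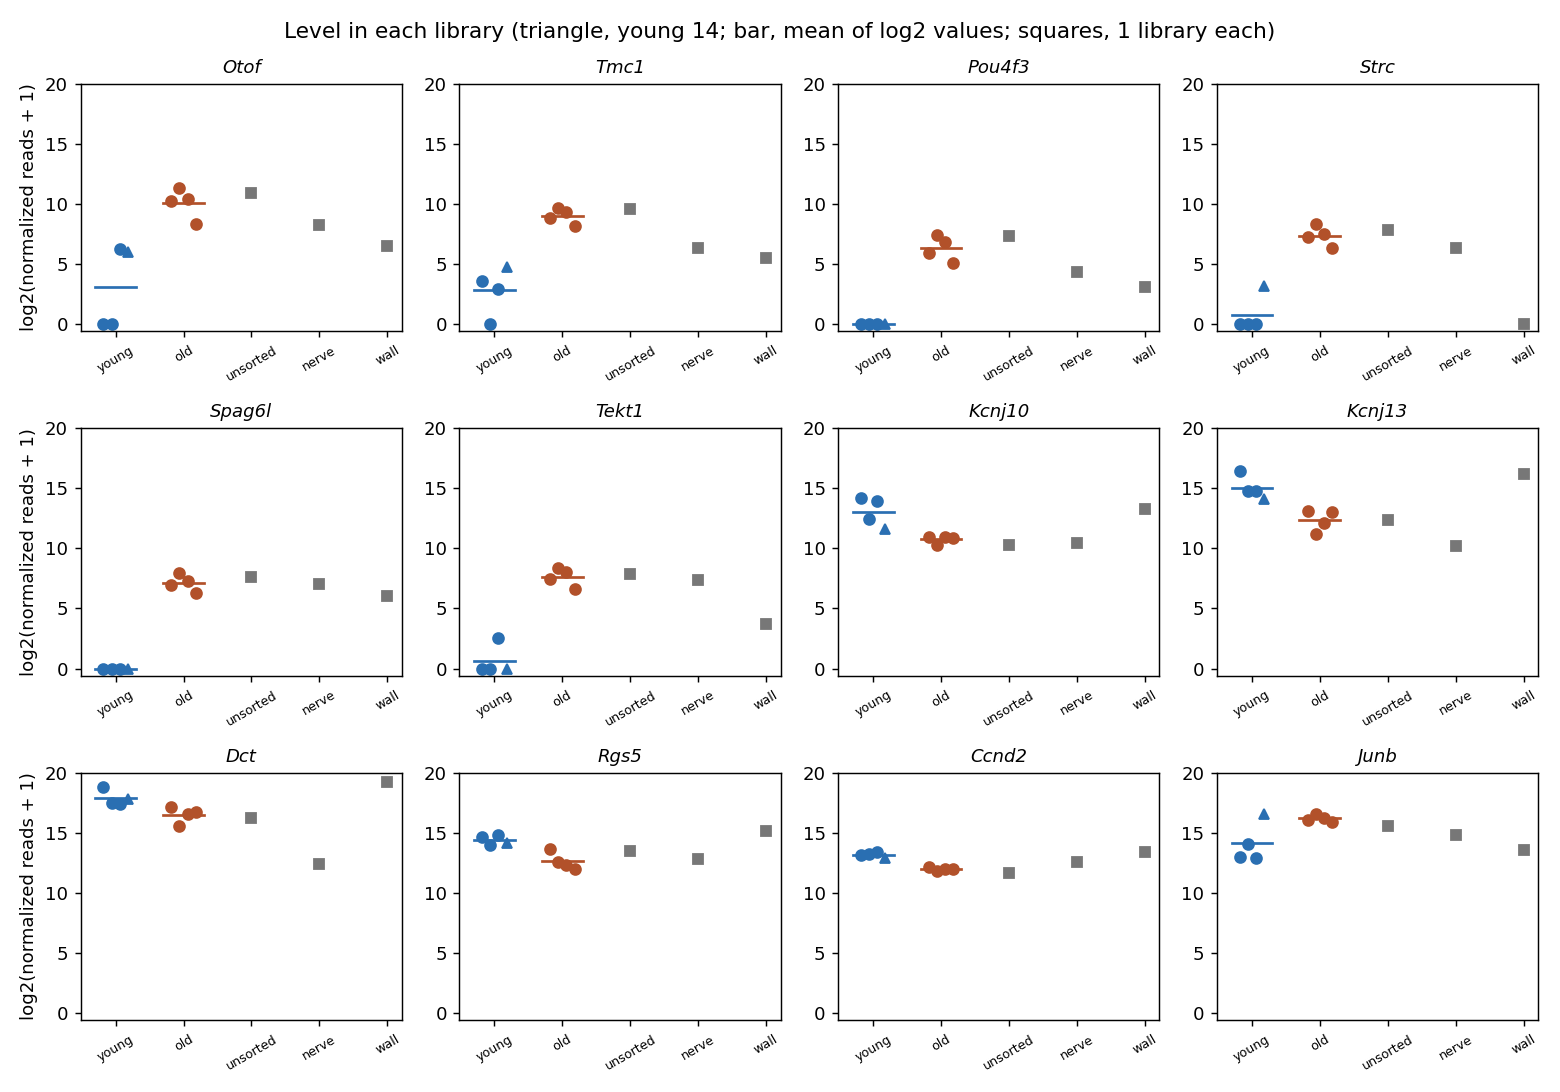
Level of 12 genes as log2(normalized reads + 1) (vertical axis, 0 to 20) in young and old nonmacrophage libraries (4 points each, young 14 as a triangle, horizontal bar for their mean) and in the unsorted, auditory nerve and lateral wall young libraries (1 square each). Otof, Tmc1, Pou4f3, Strc, Spag6l and Tekt1 are higher in every old library, and in Kcnj10, Kcnj13, Dct, Rgs5 and Ccnd2 every old library is lower, while for Junb young 14 lies with the old libraries.

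Some called genes encode parts of the cilium, a grouping made after the calls were seen. Spag6l, a protein of the central pair of the axoneme (chromosome 16, 16753016 to 16829456), had 122, 244, 156 and 76.8 normalized reads in old libraries and none in any young one. It was at least 37.6-fold higher in old (log2 difference 7.11, SE 0.802, limma adjusted p = 0.032), and had 199 in the unsorted and 131 in the nerve library of young mice. Tekt1, a tektin of the microtubule doublets (chromosome 11, 72344722 to 72362442), had 171, 335, 260 and 97.7 in old libraries and 4.89 in young 6 alone (log2 difference 6.98, SE 0.924, adjusted p = 0.044 by limma). The unsorted library had 234. Ttc29, an axonemal dynein factor, was at least 40.5-fold higher, and Cfap206 had 88.6, 333, 225 and 89.4 against 4.81 in young 14 alone. Old 11 had the highest value of each of these 4 genes.

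Their promoters are shown because RFX factors, which act on ciliary genes, bind X-box motifs. RefSeq promoters (GRCm38.p6, 250 bases before to 50 after the gene start) were found for 19 of the 28 higher genes. The half-site GTTGCC, on either strand, was present in 4 of the 19 (21.1%), against 12.67% of all 27025 promoters. The full palindromic X-box was present in 0 of the 19 and in 0.44% of all. A match is a description of letters and not a binding site. The half-sites are in capitals in the promoters of Tekt1 (chr11:72361833-72362132, minus strand), Spag6l (chr16:16829314-16829613, minus strand) and Cdkl4 (chr17:80577435-80577734, minus strand), a CDK-like kinase with the smallest p of all genes, shown from 5′ to 3′ on the gene's strand.
Tekt1: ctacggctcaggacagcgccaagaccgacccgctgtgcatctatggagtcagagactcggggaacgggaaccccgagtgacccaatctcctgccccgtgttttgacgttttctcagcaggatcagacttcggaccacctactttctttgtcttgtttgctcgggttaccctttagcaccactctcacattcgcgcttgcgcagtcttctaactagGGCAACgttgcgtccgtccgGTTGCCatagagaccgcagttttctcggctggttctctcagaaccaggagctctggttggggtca
Spag6l: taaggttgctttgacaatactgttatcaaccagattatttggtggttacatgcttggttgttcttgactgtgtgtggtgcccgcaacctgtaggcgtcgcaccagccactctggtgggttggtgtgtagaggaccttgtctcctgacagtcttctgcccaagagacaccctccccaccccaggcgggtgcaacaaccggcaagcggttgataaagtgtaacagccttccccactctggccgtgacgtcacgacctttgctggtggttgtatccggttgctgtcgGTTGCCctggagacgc
Cdkl4: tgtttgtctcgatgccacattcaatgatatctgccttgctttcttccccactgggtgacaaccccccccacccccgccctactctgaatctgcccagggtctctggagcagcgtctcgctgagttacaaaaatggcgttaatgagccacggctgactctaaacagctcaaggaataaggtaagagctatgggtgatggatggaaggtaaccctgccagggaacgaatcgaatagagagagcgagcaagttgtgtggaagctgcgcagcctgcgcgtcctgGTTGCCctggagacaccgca
Tekt1 carries 2 half-sites in opposite orientation. Cdkl4 had 236, 452, 272 and 110 normalized reads in old libraries and 1.07 in young 14 alone.

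All genes with symbols of the families Dnah, Dnai, Rsph, Tekt, Drc and Cfap, a list made after the called genes were seen, gave a similar picture. Of 50 with a deposited value, 38 were tested, with a median log2 difference of 3.31, and 19 of 38 (50%, against 11.9% of all genes) stood above without overlap, with Cfap20 alone below. Of the 38, 11 passed the filter through the old group alone, and of the other 27, 8 stood above (29.6%, against 11.3%). Under quantile normalization the number above was 7, where 8.61% of all genes stood above, and the median 1.11. The 3 members with the most reads had small differences. Cfap36 differed by 0.46 and Cfap20 by -0.44, each without overlap and without passing limma (adjusted p = 0.18 and 0.17). Without young 14 both passed limma (adjusted p = 0.046 and 0.033). Rsph3b differed by less than 0.2 in either direction depending on the setting. Low genes as a class leaned the same way. Among genes averaging under 30 normalized reads the median difference was 1.81, with 15.3% above and 0.302% below, against -0.09, 14.1% and 12.4% among genes averaging 3000 or more.

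The next called genes are on neither the hair cell list nor the list of axoneme symbols. Cyp2g1, a cytochrome P450 (chromosome 7, 26808892 to 26821205), had 127, 448, 384 and 110 in old libraries and none in young ones, at least 67.2-fold higher. Skor1, a transcriptional corepressor, was at least 38.7-fold higher, and Lhx3, a homeobox factor of hair cells and motor neurons, had 117, 341, 199 and 128 against 7.49 in young 14 alone. Gpr152, an orphan receptor, and Ttc24 were at least 23.2-fold and 18.0-fold higher. Oas2, an antiviral synthetase induced by interferon, had 33.8, 61.9, 47.3 and 256 in old libraries and none in young ones, so old 19 alone held most of it. It was the only called gene of 22 tested interferon genes, whose median difference was 0.28.

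Ccnd2 (chromosome 6, 127125162 to 127152193) was the gene called lower. It had 4440, 3629, 4151 and 4079 normalized reads in old libraries and 8920, 9534, 10786 and 7711 in young ones. The groups were far apart, young 14 being the lowest of its group. The log2 difference was -1.17 (SE 0.179, limma adjusted p = 0.044), a ratio of means of 2.27 in favour of young. The unsorted young cochlea had 3226, below every old library, while the lateral wall had 10570.

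The 10 genes next in order of p on the lower side did not pass (limma adjusted p from 0.071 to 0.11), although their groups did not overlap. They were Rnase1, a secreted ribonuclease of endothelium, Chad, a cartilage matrix protein, Nrep, Rgs5, a pericyte regulator of G protein signals, Casq2, a calcium store protein of muscle, Aplnr, the apelin receptor of vessels, Dap, Cd38, an NAD-consuming ectoenzyme, Kcnj13 and Rab7b. Rnase1 had 27880, 15035, 19512 and 19281 in old libraries against 74174, 51937, 44663 and 43859 in young ones. Aplnr averaged 90.4 ± 36.0 in old and 468 ± 146 in young libraries (SD, n = 4 each), a ratio of means of 5.18. Casq2 averaged 199 ± 150 in old and 1072 ± 512 in young libraries (SD, n = 4 each). Without young 14 all 10 were called by limma (adjusted p from 0.0034 to 0.017), as were 12.1% of all genes on the lower side. The 10 were picked by small p and lack of overlap in these same libraries, so this is no further evidence.

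In the strial intermediate cell list, 3 genes had every old library below every young one, without passing the test. Kcnj10, the inward rectifier that sets the potential of the stria, had 1968, 1230, 2004 and 1902 in old libraries. The young ones had 18796, 5723, 15278 and 3107, so young 14 was the nearest to old. The log2 difference was -2.28 (SE 0.526, limma adjusted p = 0.13). Kcnj13, a related channel of pigment and epithelial cells, had 9028, 2385, 4329 and 8263 in old and 86847, 27192, 27659 and 17410 in young libraries (log2 difference -2.63, SE 0.552, adjusted p = 0.10 by limma). Dct, dopachrome tautomerase of melanin synthesis, had 145239, 47647, 95310 and 108674 against 454676, 183171, 169340 and 234518 (-1.38, adjusted p = 0.15 by limma). For each of the 3 the groups did not overlap, and old 11 was the lowest library.

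The rest of the list was mixed. Of 12 genes 3 stood below (25%, against 6.43% of all genes and 12.4% of those averaging 3000 normalized reads or more). Kit, a receptor of melanocyte growth, stood above, and the list median was -0.53. Gpnmb, a melanosome glycoprotein, differed by -0.18 and overlapped. In the unsorted young cochlea Kcnj10, Kcnj13 and Dct had 1208, 5358 and 76849, so Kcnj10 lay just below the old range and Kcnj13 and Dct within it. In the young lateral wall they had 9879, 75961 and 625746, and in the nerve 1404, 1164 and 5370. Whether the ages differed in dissection or in the yield of the sort was not tested. Without young 14, Kcnj10 and Kcnj13 were called lower by limma (adjusted p = 0.0056 and 0.012) and Dct was not (0.058).

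Fibrocytes of the spiral ligament, which return potassium to the stria, gave 3 of 11 genes below (27.3%, against 6.43% of all genes). Among all genes averaging 3000 normalized reads or more, the share below was 12.4%. In the list 0 stood above (against 11.9%), with a median of -0.47. Coch, the abundant matrix protein cochlin, had 71089, 74818, 95176 and 72874 in old and 125822, 362711, 120474 and 152451 in young libraries (-1.13, limma adjusted p = 0.15). Gjb6, connexin 30, had 16496 to 23880 in old and 28176 to 45544 in young libraries (-0.82). Gjb2, connexin 26, did not differ in this way: its values overlapped, with 17667 to 25327 and 17564 to 26521. Pou3f4, a transcription factor of these cells, differed by -1.21, and without young 14 it passed limma (adjusted p = 0.0048).

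Glial genes went both ways. In the Schwann cell list 2 of 18 genes stood above (11.1%, against 11.9% of all genes) and 0 below, with a median of 0.00. At an unadjusted limma p under 0.05, 7 of the 18 were higher and 4 lower, against 17% and 10.5% of all genes. None passed limma after adjustment. Mbp, myelin basic protein, had 2530000, 3420000, 2890000 and 3510000 in old and 1160000, 1230000, 2510000 and 1780000 in young libraries (such high values were deposited to 3 digits; 0.95, limma adjusted p = 0.15). Mobp, a myelin gene of oligodendrocytes, was 130049 to 200600 in old and 11358 to 82381 in young libraries (2.13, adjusted p = 0.14 by limma). The list median of 18 oligodendrocyte genes was -0.55. At an unadjusted limma p under 0.05, 1 was higher and 6 lower, against the same 17% and 10.5% of all genes. Without young 14, 7 of the 18 were called lower by limma, against 12.1% of all genes in that fit. Against young 14 alone the median was 0.34.

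Bone and vessel lists each had members with every old library below every young one and none the other way. Among osteoblast genes 3 of 15 (20%, against 6.43% of all genes) stood below in old and 0 above (against 11.9%). Bglap, osteocalcin, had 344, 33.7, 678 and 29.1 in old and 6212, 1088, 13867 and 1605 in young libraries (-4.81, limma adjusted p = 0.14), though it can share reads with its neighbour Bglap2. Spp1, osteopontin, had 54224 to 66095 against 84371 to 122812. In the endothelial list Emcn, Esam and Ly6c1 stood below, 3 of 15 (20%, against 6.43%, and 12.4% of genes averaging 3000 or more). Emcn had 21071 to 23200 in old and 32133 to 44529 in young libraries (-0.80, adjusted p = 0.12 by limma). Rgs5 was the only one of 13 pericyte and smooth muscle genes without overlap (7.69% below, near the 6.43% of all genes). It had 12730, 6045, 4982 and 4022 in old libraries against 25812, 16349, 28812 and 18590 in young ones.

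Globin RNA was high in young 2, 5 and 6 and low in young 14 and the old libraries. Hba-a1, an alpha globin gene, had 800896, 180041 and 228748 in these 3, against 6455 in young 14 and 6891 to 13040 in old libraries. The unsorted, nerve and lateral wall libraries of young mice had 60695, 108753 and 159894. Hba-a2 and Hbb-bs, which can share reads with near-identical copies, showed the same division. The groups overlapped because of young 14 (log2 difference of Hba-a1 -3.79, limma adjusted p = 0.15, and 0.0026 without young 14). The order of the young libraries for Hba-a1, from young 2 through 6 and 5 to 14, was that on the first principal component, and its part in the other differences was not tested.

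Genes of oxidative phosphorylation depended on young 14. Oxidative phosphorylation builds most cellular ATP. Of 38 of its nuclear genes, 32 were called lower in old libraries without young 14, against 12.1% of all genes in that fit. With young 14, 0 were called, and 22 were lower at an unadjusted limma p under 0.05, against 10.5% of all genes. Their median was -0.94 against all young libraries and 0.05 against young 14 alone. Cox4i1, a subunit of complex IV, had 17015, 15124, 16236 and 18074 in old libraries and 63044, 19008, 43616 and 14546 in young ones. Atp5a1 and Atp5b, subunits of ATP synthase, differed by -0.33 and -0.42 and overlapped. Young 14 lay within or just below the old range in all 3.

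Antioxidant genes had 9 of 26 below (34.6%, against 6.43% of all genes) and 2 above (7.69%, against 11.9%). The list was high, with a mean log2 level of 11.83 to 12.93 across the libraries. Of all genes averaging 3000 normalized reads or more, 12.4% stood below. Gsta4, a glutathione transferase for lipid aldehydes, had 35338, 15124, 30864 and 38741 in old and 274981, 77098, 85294 and 54426 in young libraries (-1.82, limma adjusted p = 0.15). Prdx1, a peroxiredoxin, differed by -1.17 and overlapped through young 14 at 22354. Gpx3 did not follow, at 0.10. The 2 genes above were Txnrd1, thioredoxin reductase (3511 to 4030 against 741 to 2956), and Gclc, which makes the first step of glutathione synthesis. None of the 26 passed limma with all libraries. At an unadjusted limma p under 0.05, 12 were lower, against 10.5% of all genes. Without young 14, 15 were called lower, against 12.1% of all genes in that fit. Against young 14 alone the median was -0.10, compared with -0.74 against the group.

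**Figure D4:**
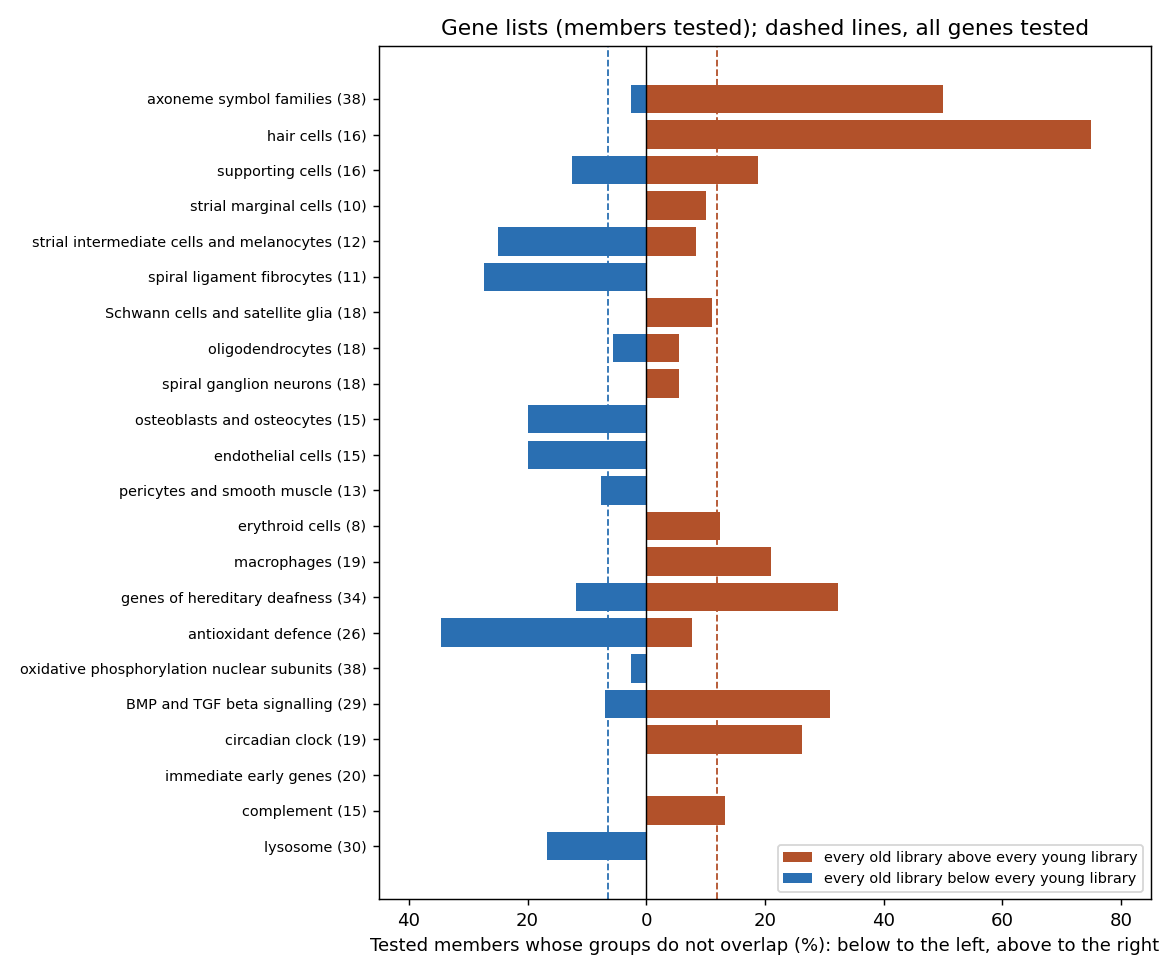
Share of the tested members of each gene list (vertical axis, members tested in brackets) whose groups do not overlap, in percent (horizontal axis), with old above young to the right and old below young to the left. Dashed lines mark the shares over all 15413 genes, 11.9% and 6.43%, and the hair cell bar at 75% is the longest on the right and the antioxidant bar at 34.6% the longest on the left.

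Of 29 genes of BMP and TGF beta signalling 9 stood above (31.0%, against 11.9% of all genes) and 2 below (6.90%, against 6.43%), with a median of 0.47. Against young 14 alone the median was 0.16, and the mean log2 level was 9.84 in young 14, 8.94 to 9.38 in the other young and 9.85 to 10.09 in old libraries. Those above included the ligands Tgfb3, Bmp2 and Bmp6, the receptors Tgfbr1, Tgfbr2, Tgfbr3 and Bmpr1a and the latency proteins Ltbp1 and Ltbp2. Tgfb3 had 4238, 4149, 3944 and 4403 in old and 1566, 1696, 1971 and 3014 in young libraries (1.07, limma adjusted p = 0.12). The targets Id1, Id2 and Id3, inhibitors of differentiation, leaned the other way, by -0.49, -0.66 and -0.72. None of these passed (limma adjusted p = 0.25, 0.16 and 0.17), and the groups overlapped for Id1 and Id3. Of the 19 clock genes 5 stood above (26.3%, against 11.9% of all genes), among them Per2, Cry1 and Tef, and the number was 1 with a common total and 2 with quantile normalization. Their mean log2 level was 10.40 in young 14, 8.71 to 10.02 in the other young and 10.42 to 10.50 in old libraries, and the median difference was 0.79 over all young libraries and -0.07 against young 14 alone. Rora and Bhlhe40 differed by -0.13 and 0.99 and overlapped.

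Immediate early genes, switched on within minutes of a stimulus such as tissue dissociation, did not separate the ages by library. None of 20 was without overlap, against 11.9% of all genes above and 6.43% below. At an unadjusted limma p under 0.05, 9 were higher and 0 lower, against 17% and 10.5% of all genes. Fos had 98947, 216182, 139497 and 97126 in old libraries and 49171, 33990, 31260 and 170996 in young ones. Junb and Egr1 were the same in form, at 96631 and 162721 in young 14 and 7458 to 17150 and 4692 to 14874 in the other young libraries. Young 14 therefore stood within the old range for all 3. Without young 14, 11 of 20 were called higher in old, against 17.2% of all genes in that fit.

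A pair of immune genes outside the called set stood clear of the 4 young nonmacrophage libraries of whole cochlea and of the unsorted one, and were chosen after their values were seen. C4b, a complement component, had 7227, 6250, 6912 and 14159 in old libraries. It had 1202, 1572, 1129 and 3377 in young ones 2002 in the unsorted library and 6397 in the lateral wall (2.31, SE 0.391, limma adjusted p = 0.061). Il33, an alarmin cytokine of stromal cells, had 2627, 2236, 2480 and 2827 against 315, 621, 648 and 1072 (2.06, SE 0.347, adjusted p = 0.061 by limma). Of 15 complement genes, 2 stood above (13.3%, against 11.9%) and 0 below.

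The sort left few macrophage reads in either group. Cx3cr1 had 32.0, 26.8, 64.0 and 102 normalized reads in old and 1.78, 2.72, 1.63 and 4.28 in young libraries, against 1968 in the unsorted cochlea. Csf1r, the receptor that keeps macrophages alive, had 159, 193, 383 and 345 against 19.6, 128, 35.9 and 148. Of 19 macrophage markers 4 stood above (21.1%, against 11.9% of all genes) and 0 below, and 2 had passed the filter through the old group alone. Of the other 17, 2 stood above (11.8%), near the 11.3% of all genes counted in this way. The list median was 1.47, and 0 stood above under quantile normalization. The summed level of the 19 markers was 2969 to 6069 in old libraries and 1241 to 8091 in young ones, and 49894 in the unsorted one. Ptprc, a marker of all leukocytes, overlapped. Whether this remainder enters the immune differences was not tested.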

How the data were processed

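RNA of GFP-sorted cochlear cells was sequenced, and 4 old were compared with 4 young nonmacrophage libraries, grouped by the labels. Per the labels' protocols each isolate came from 1 mouse, low-quality RNA was left out and some libraries were sequenced a second time. The submitters' processing notes name mm10, TopHat2, Partek and DESeq2, without versions. The authors deposited 1 signal value per gene and library for 18639 symbols, which is the number of reads scaled to the library and is called normalized reads here. Low values rise in steps of 1 read, from which reads were restored, and 100.0% of values under 10000 reads were whole within 0.1 read. How the authors counted reads is not given in the sources used here, so overlapping or near-identical genes may share reads. All replicate pairs differed beyond counting noise, with chi-square values of 50.5 to 920.3 per degree of freedom. Total reads were 51.2 to 64.4 M in old and 24.9 to 60.2 M in young libraries (M, the prefix mega).

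Genes with at least 10 normalized reads in at least 4 of 8 libraries (15413) were tested with limma 3.58.1 (trend, robust; R 4.3.3) on log2(value + 1) at a Benjamini-Hochberg adjusted p under 0.05. Numbers of genes with reads were compared by exact two-sided permutation. Alternatives were other pseudocounts, filters and scalings, library weights, a fit with neither trend nor robust estimation, a fit of 14 libraries, edgeR 4.0.16, DESeq2 1.42.0 and voom on restored reads, thinning to 20 M reads, and leaving out libraries. The fit was first tested on simulated data. Gene positions are from GENCODE M21 (mm10), and motifs were searched in RefSeq promoters.

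The comparison and the gene lists were chosen with earlier results of these data known. The text names, in each direction, up to 15 called genes in order of log2 difference. Their mean had to reach 20 normalized reads in the higher group and the groups could not overlap, and predicted, clone, Riken, Xist and Y-linked symbols were left out. With fewer than 10 called genes in a direction, the 10 of smallest p were named. Each described list adds its called members and the 3 with the highest mean, and Otof, Tmc1, Kcnj10, Kcnj13, Cx3cr1, Csf1r and Ptprc were always named. Other members were named after their values were seen, and 1 gene that the rule names is not reported here.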

Additional observations from a re-analysis of the deposited data

Results flagged for a closer look

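In 100 groups of 4 libraries, the highest or lowest library was compared with the nearest of the others, and 14 stood far apart. For normally distributed values chance marks about 1 in 20 such groups, but a gene read in a single library of its group is always marked. This is so for Cdkl4, Lhx3, Cfap206, Strc, Loxhd1 and Tekt1, so the 14 cannot be set against that rate. Old 19 had 17199 genes with reads at 20 M reads, the others 17283 to 17287, and 256 normalized reads of Oas2, the others 33.8 to 61.9. Old 10 had 423 of Casq2, the others 108 to 148. Old 11 had 1230 of Kcnj10, the others 1902 to 2004, and 383 of Ptprc, the others 131 to 155.

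Young 14 had 60.2 M reads, the others 24.9 to 25.4 M. It alone among the young held reads of Cdkl4 (1.07 normalized reads), Lhx3 (7.49), Cfap206 (4.81), Strc (8.02) and Loxhd1 (3.74), as young 6 alone did of Tekt1 (4.89). Young 5 had 249 of Aplnr, the others 532 to 549. Young 2 had 86847 of Kcnj13, the others 17410 to 27659.

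The unsorted young cochlea, outside the tested comparison, had a mean log2 level of hair cell genes of 8.56. The sorted young libraries had 3.26 to 5.04 and the old ones 7.45 to 8.90.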

How the results depend on the processing

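The 29 calls (28 higher, 1 lower) became 0 with a pseudocount of 0.1, a minimum of 100 in 4 libraries, library quality weights or edgeR (0 higher, 0 lower each, with 3668 to 4125 genes at an unadjusted p under 0.05). They became 65 (63 higher, 2 lower) with a pseudocount of 10, 189 (184, 5) with no filter, 175 (170, 5) with at least 1 in 2 libraries, 88 (87 higher) with neither trend nor robust fitting, 130 (126, 4) with 14 libraries, 2054 (486, 1568) with DESeq2 and 47 (45, 2) with voom. Between the old libraries and young 14 alone, the libraries over 40 M reads, they were 105 (101, 4); the lone young library is there assumed to vary like the old ones. Lower calls were 4 with quantile normalization and 0 with a common total. Leaving out 1 library gave 0 to 4517 calls, 0 to 2656 higher and 0 to 1861 lower. The difference in genes with reads was 1846.9 (without young 2) to 2780.6 (without young 14) when 1 library was left out, and 2198.6 to 2213.9 without 1 old library, where exact two-sided permutation p was 0.0571. It was 0.0286 without any 1 young library.

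Some named genes that had not passed changed sign. Against young 14 alone the log2 difference was 0.88 for Pvalb, 0.70 for Cib2, -0.12 for Rsph3b, -0.32 for Gjb2, 0.54 for Apod, 0.15 for Mal, 0.21 for Apoe, 0.43 for Hba-a1, 0.42 for Hba-a2, 0.38 for Hbb-bs, 0.08 for Atp5b, 0.05 for Atp5a1, 0.19 for Cox4i1, -0.42 for Gpx3, -0.33 for Bhlhe40, -0.39 for Fos, -0.49 for Egr1, -0.36 for Junb and -1.65 for Ptprc. Quantile normalization gave -0.11 for Rsph3b, 0.20 for Gpnmb, 0.00 for Mbp, 0.35 for Apoe, 0.01 for Atp5b and 0.02 for Atp5a1. Cib2 was 0.03 with a common total, 0.06 with quality weights and 0.03 with voom. With TMM, quality weights, edgeR, DESeq2, voom and thinning, Rsph3b was -0.02, -0.14, -0.06, -0.11, -0.05 and -0.09, and Gjb2 -0.03, -0.06, -0.03, -0.08, -0.02 and -0.09. DESeq2 gave -0.01 for Gpx3 and -0.01 for Ptprc. Leaving out 1 library in turn gave -0.69 to 0.13 for Pvalb, -0.37 to 0.14 for Cib2, -0.17 to 0.19 for Rsph3b, -0.43 to 0.19 for Gpnmb, -0.07 to 0.13 for Gjb2 and -0.12 to 0.28 for Gpx3. The cause was not tested.

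No paired analysis was possible because each library number belongs to 1 library and the groups share none. With 4 libraries a group, of which 3 young ones have 24.9 to 25.4 M reads, low genes rest on few reads.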

Other observations

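Genes of the sex chromosomes, chosen after their values were seen, did not follow 1 mouse per library in every case. Xist, the RNA of the inactive X chromosome, had 16.6, 412, 589 and 576 normalized reads in old 10, 11, 18 and 19, and 0, 298, 1495 and 6.95 in young 2, 5, 6 and 14. Ddx3y, a helicase gene of the Y chromosome, had 3677, 1319, 2145 and 2.19 in old and 1504, 0, 1.63 and 3718 in young libraries. Old 11 and old 18 therefore held at least 101 normalized reads of each, as did the nerve library (Xist 101, Ddx3y 2150) and the lateral wall library (168 and 1691). Old 10 and young 14 held much Ddx3y with little Xist (16.6 and 6.95). Old 19 and young 6 held much Xist with little Ddx3y (2.19 and 1.63). The other Y-linked genes Kdm5d, Eif2s3y and Uty had 107, 651 and 421 in old 11 and 255, 1084 and 480 in old 18. The source of the mixed reads was not tested.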
